A study of Mus musculus with 12 samples.

Results

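The elastic fibre and microfibril genes described here are 10 genes: elastin (Eln), fibrillin 1 and 2 (Fbn1, Fbn2), fibulin 1, 2 and 5 (Fbln1, Fbln2, Fbln5), Efemp2 (fibulin 4), and the microfibril-associated proteins Mfap2, Mfap4 and Mfap5. They were chosen by name, as the rows of the deposited count table whose mouse Entrez identifier maps to these symbols. The choice was made with earlier results of these data known, so counts set beside shares of all genes are description only. All 10 were found among 27179 genes, and all 10 were among the 14136 genes with enough reads to be tested. The cells were mouse embryonic fibroblasts, a primary connective tissue cell grown from wild-type C57BL/6 embryos at embryonic day 13.5 and kept in DMEM with 10% fetal bovine serum at 3% oxygen and 5% carbon dioxide. Every group received a compound at 10 µM: WM-8014, an inhibitor of the MYST family of histone acetyltransferases, or WM-2474, which the labels call its inactive control. Treatment lasted 96 h or 240 h, which gave 4 groups of 3 libraries, from cultures numbered 5, 6 and 7 in each. The labels do not say whether the cultures came from separate embryos, so p-values measure the spread between these cultures. No untreated or vehicle-only group was analysed here.

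Elastic fibres give skin, lung and arteries their recoil. Fibrillins are large glycoproteins that polymerise into microfibrils outside the cell, and elastin's soluble precursor is deposited on that scaffold and crosslinked by lysyl oxidases. Fibulin 4 and fibulin 5 bring the precursor and the crosslinking enzyme to the microfibril, and the microfibril-associated proteins bind fibrillin or elastin. Microfibrils also hold latent TGF-beta through its binding proteins. Fibroblasts and smooth muscle cells are main makers of these proteins.

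Library totals ran from 10147466 to 45903190 reads, so that 3 reads, taken as the floor of detection by counting alone, corresponded to 0.0615 to 0.303 CPM, the read count relative to the scaled library total. All 8 fibroblast markers checked were detected, and the sum of their levels was 23100 to 39875 CPM over the 12 libraries. In the test of WM-8014 against WM-2474 given below, 1 of these 8 was higher and 0 lower at 96 h, beside 10.9% and 11.8% of all genes. At 240 h 1 was higher and 2 lower, beside 21.2% and 21.4% of all genes. Markers of other cell types summed to less: 87.7 to 203 CPM for cartilage, 16.9 to 67.2 CPM for epithelium and mesothelium, 4.21 to 9.79 CPM for macrophages and 2.31 to 7.60 CPM for endothelium. The smooth muscle markers are given with elastin. All 12 libraries are labelled female, yet every one held 96.3 to 124 CPM of the Y-linked gene Ddx3y and 0 to 4 reads of Xist. Cultures 6 and 7 of WM-2474 at 96 h stood apart in one gene, Misp3, at 0.724 and 0.943 CPM against 79.9 to 285 CPM in the other 10 libraries. Leaving both out ended no compound call of the 10 genes at 96 h or 240 h. In bulk RNA, fewer cells that express a gene and less of its RNA per cell cannot be told apart.

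The genes differed widely in level. On the RPKM scale, in which CPM are divided by the deposited gene length in kilobases, Fbln2 stood first in every group, with a group mean of 735 RPKM with WM-2474 at 96 h. Efemp2 at 179 RPKM, Fbln5 at 169 RPKM and Fbn1 at 149 RPKM followed in that group. Fbn2 at 56.6 RPKM and Mfap2 at 52.0 RPKM came next, and the libraries of these 2 genes overlapped. Fbln1 at 24.5 RPKM and Eln at 21.6 RPKM overlapped as well. Mfap5 at 14.6 RPKM and Mfap4 at 7.97 RPKM were the lowest. Elastin was thus among the less abundant transcripts of its own fibre with WM-2474 at 96 h. In those libraries Fbln2 exceeded elastin per length by 30.4 to 43.4 times. By 240 h with WM-2474 Eln stood higher, at 62.4 RPKM. Its libraries there overlapped those of Mfap2 at 67.0 RPKM and Fbn2 at 59.2 RPKM. With WM-8014 Mfap5 stood above Fbln1 and Eln at both times. It had 21.6 against 17.5 and 11.8 RPKM at 96 h, and 40.4 against 7.94 and 23.5 RPKM at 240 h. With WM-2474 at 240 h Mfap5 and Fbln1, both at 19.7 RPKM, overlapped, and Mfap5 lay below Eln. The plot of levels per length shows these orders.

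**Figure D1:**
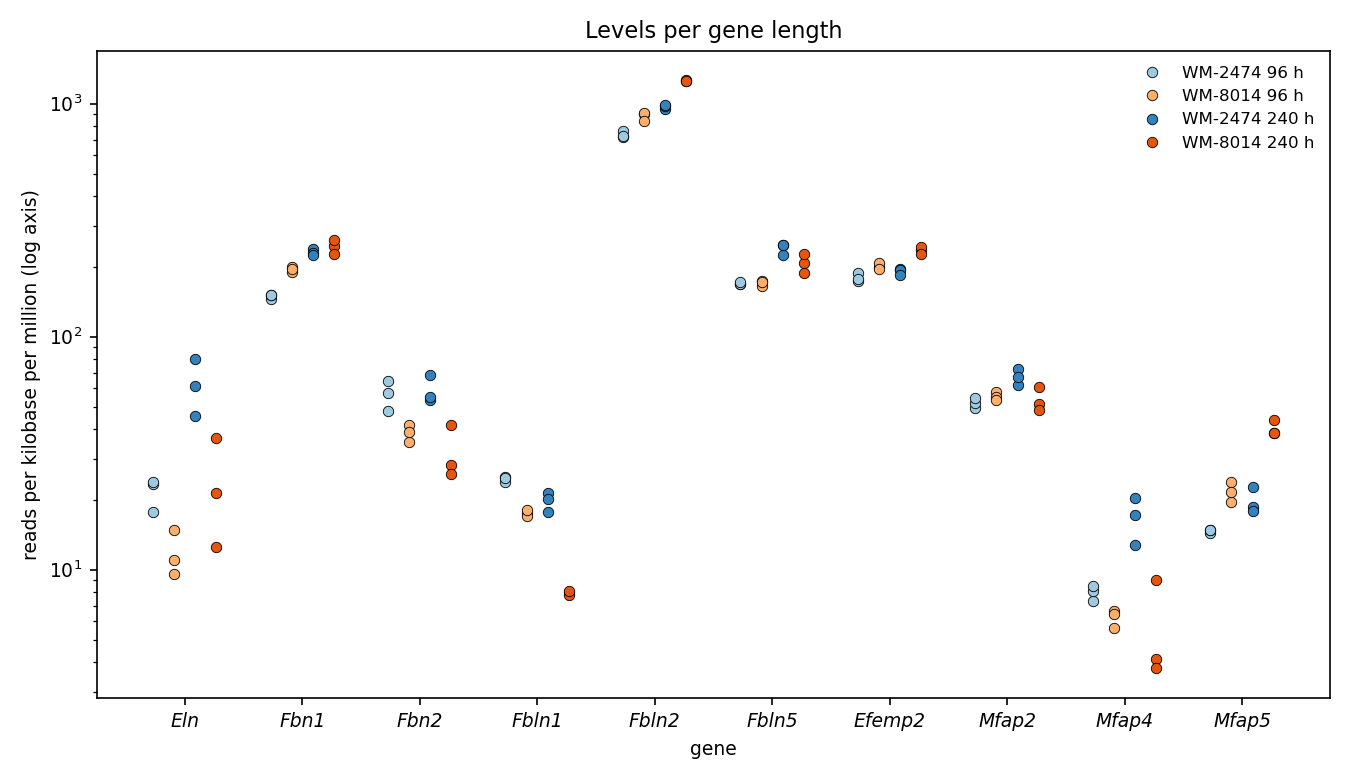
Level of the 10 genes in RPKM (log axis), by group; each point is 1 library. Fbln2 was the most abundant in all 4 groups, and Mfap4 had the lowest group means, though at 240 h its libraries overlapped those of the next gene with either compound.

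Together the 10 genes took 0.671 to 0.716% of the reads with WM-2474 at 96 h and 0.766 to 0.804% with WM-8014. At 240 h the shares were 0.923 to 0.965% and 0.99 to 1.07%. The sum is mostly Fbln2, Fbn1 and Fbln5 and does not describe the rarer members. Eln spread most over the 12 libraries, with a highest level 8.35 times its lowest. Mfap4 followed with 5.39 times, Fbln1 with 3.21 times, Mfap5 with 3.06 times and Fbn2 with 2.67 times. The other 5 genes stayed within 1.4 to 1.79 times, Efemp2 being the steadiest. The exons of 5 of the genes share bases with a gene on the opposite strand in the GENCODE annotation of this build: Fbn1 with Gm9913 (2442 bases), Eln with Gm30003 (267), Efemp2 with Mus81 (173), Fbn2 with Gm26507 (129) and Mfap4 with Mapk7 (89). The strand setting of the counting is not given in the sources used here, so reads of these stretches may be of either gene.

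The first question was what WM-8014 changed against the inactive compound at each time. At 96 h, 4 of the 10 genes were higher with WM-8014 (Fbn1, Fbln2, Efemp2, Mfap5) and Fbln1 was lower, at a Benjamini-Hochberg adjusted p under 0.05 in edgeR's quasi-likelihood test; of all tested genes, 22.8% passed. At 240 h, 3 were higher (Fbln2, Efemp2, Mfap5) and 6 lower (Eln, Fbn2, Fbln1, Fbln5, Mfap2, Mfap4), where 42.6% of all genes passed, 21.2% higher and 21.4% lower. The median log2 fold change of the 10 genes was 0.04 at 96 h and -0.27 at 240 h, and that of all genes was 0.00 and 0.01. The libraries of the 2 compounds did not overlap for 8 of the 10 genes at 96 h, the exceptions being Fbln5 and Mfap2, where 38.1% of all tested genes did not overlap. At 240 h it was again 8 of 10, the exceptions being Fbn1 and Fbln5, where 51.8% of all did not. The compound effects with their intervals are plotted by gene.

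**Figure D2:**
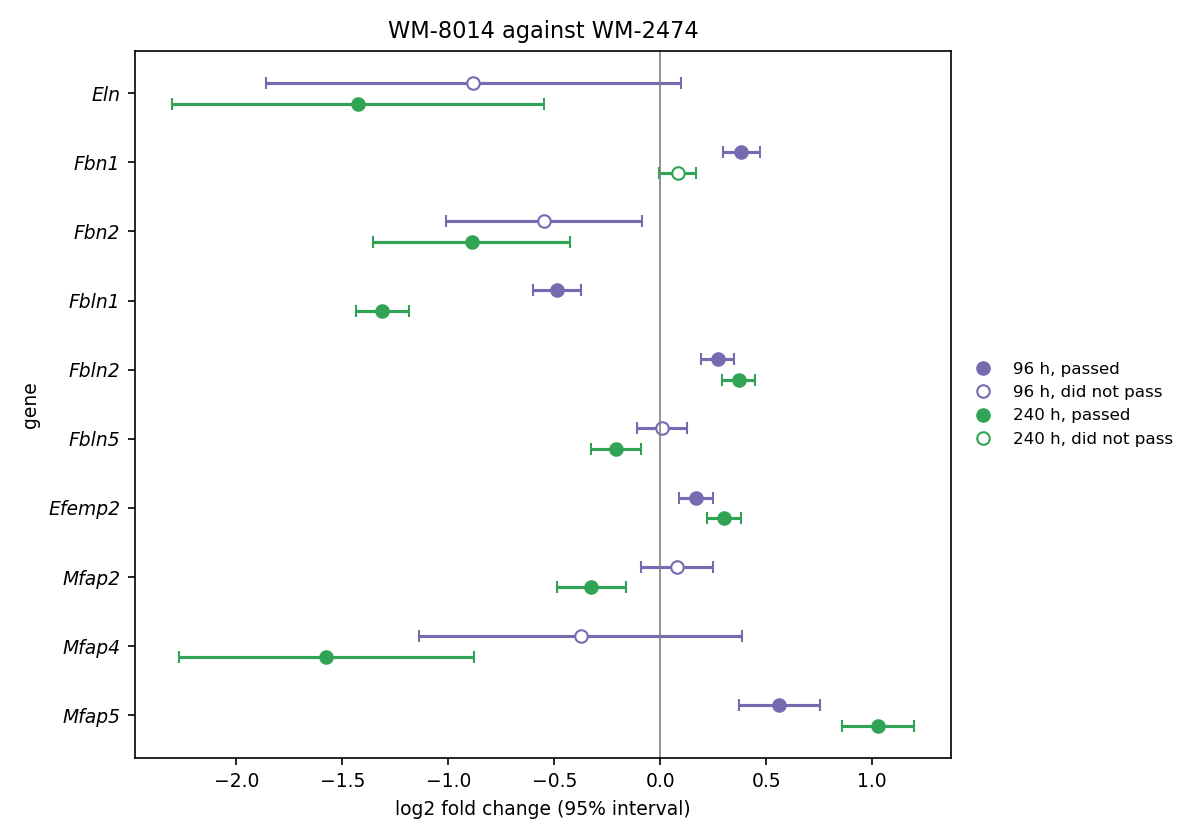
Log2 fold change of WM-8014 against WM-2474 for each gene at 96 h and 240 h, with 95% intervals; filled points passed an adjusted p of 0.05. Fbln1 lay below 0 and Mfap5 above 0 at both times, and Eln, Fbn2 and Mfap4 passed at 240 h and not at 96 h, a difference whose own test did not pass.

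Eln (Entrez 13717, GRCm38 chromosome 5, 134702595 to 134747368) encodes tropoelastin, the elastic core of the fibre. With WM-2474 it measured 88.4, 66.6 and 90.1 CPM in cultures 5, 6 and 7 at 96 h and 303, 173 and 233 CPM at 240 h. With WM-8014 it measured 56.1, 36.3 and 41.6 CPM at 96 h and 80.4, 47.3 and 139 CPM at 240 h. The WM-8014 libraries lay below the WM-2474 libraries of their own time without overlap, in 3 of 3 cultures. At 240 h Eln fell 2.69-fold (log2 -1.43, SE 0.382, adjusted p 0.0161). At 96 h its log2 difference of -0.88 had an interval of -1.86 to 0.10 and did not pass (adjusted p 0.185). The 240 h call was lost without culture 5 in all groups (adjusted p 0.192), without only culture 5 of WM-8014 at 240 h (0.0513) and with only the compared groups in the fit (0.0877), over a range of 0.00111 to 0.192 across alternatives. The direction held in each of those.

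Smooth muscle cells also make elastin, and 8 genes used as their markers were all detected in these cultures. The summed level of these markers was 4385 to 4540 CPM with WM-2474 and 3784 to 3957 CPM with WM-8014 at 96 h. There 2 of 8 were higher and 3 lower, beside 10.9% and 11.8% of all genes. At 240 h the sums were 8716 to 9439 and 8671 to 9825 CPM. At that time 3 were higher and 0 lower, beside 21.2% and 21.4% of all genes. Most of the sum was Acta2 and Tagln, with group means of 2675 and 1439 CPM with WM-2474 at 96 h, where Myocd had 3.44 CPM. Whether smooth muscle cells were present was not tested, nor was their part in the values of Eln.

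Fbn1 (Entrez 14118, chromosome 2, 125300594 to 125506485) is the main fibrillin of microfibrils after birth. It measured 1440, 1501 and 1491 CPM with WM-2474 and 1885, 1965 and 1926 CPM with WM-8014 at 96 h, with no overlap, and rose 1.30-fold (log2 0.38, SE 0.0418, adjusted p 2.46e-06). At 240 h the groups overlapped, at 2359, 2270 and 2219 CPM against 2419, 2252 and 2577 CPM. The log2 difference there was 0.08, with an interval of -0.00 to 0.17 (adjusted p 0.121), and it passed only when culture 6 of WM-8014 at 240 h was left out (0.0155, over a range of 0.0155 to 0.86 across alternatives).

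Fbn2 (Entrez 14119) is the fibrillin best known from embryonic tissues. It measured 502, 677 and 601 CPM with WM-2474 and 370, 439 and 410 CPM with WM-8014 at 96 h. At 240 h it measured 721, 561 and 579 against 294, 270.0 and 439 CPM. The groups did not overlap at either time. It fell 1.85-fold at 240 h (log2 -0.89, SE 0.202, adjusted p 0.00714). The 96 h log2 difference of -0.55 (interval -1.01 to -0.09) missed the threshold at an adjusted p of 0.0885, and passed with DESeq2 (0.0451) and when culture 7 of WM-8014 at 240 h was left out (0.0281), over a range of 0.0281 to 0.63 across alternatives. The 240 h call was lost without culture 5 (0.107) or culture 6 (0.0807) in all groups, over a range of 0.000106 to 0.107. Within a library, the ratio of Fbn1 to Fbn2 per length was 2.35 to 3.03 with WM-2474 and 4.74 to 5.4 with WM-8014 at 96 h. At 240 h it was 3.46 to 4.28 and 6.21 to 8.83. The ranges of the 2 compounds did not overlap at either time.

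The fibulins are shorter glycoproteins that bind elastin, fibrillin and basement membranes, and they split in direction. The upstream sequences of Fbln1 and Fbln5, which were lower at 240 h, and of Efemp2, which was higher, are shown first so that they can be compared. RefSeq windows around an annotated start of the gene were found for 6 of the 10 genes (Fbn1, Fbln1, Fbln2, Fbln5, Efemp2, Mfap2), with 11 windows in all. For these 3 genes the 250 bases before the outermost start are given 5′ to 3′ on the gene's strand from GRCm38.p6, at chr15:85205699-85205948 (plus strand) for Fbln1, chr12:101819120-101819369 (minus strand) for Fbln5 and chr19:5473696-5473945 (plus strand) for Efemp2. Capitals mark matches to the motifs searched on both strands.
Fbln1: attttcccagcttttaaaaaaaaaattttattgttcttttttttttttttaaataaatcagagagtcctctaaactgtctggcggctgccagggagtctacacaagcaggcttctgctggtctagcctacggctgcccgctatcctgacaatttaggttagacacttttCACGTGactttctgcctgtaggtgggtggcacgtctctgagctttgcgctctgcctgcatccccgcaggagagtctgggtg
Fbln5: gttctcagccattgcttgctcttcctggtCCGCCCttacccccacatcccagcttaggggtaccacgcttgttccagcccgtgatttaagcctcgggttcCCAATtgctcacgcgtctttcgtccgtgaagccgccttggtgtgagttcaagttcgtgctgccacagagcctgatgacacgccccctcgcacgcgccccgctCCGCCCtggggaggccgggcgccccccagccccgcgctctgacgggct
Efemp2: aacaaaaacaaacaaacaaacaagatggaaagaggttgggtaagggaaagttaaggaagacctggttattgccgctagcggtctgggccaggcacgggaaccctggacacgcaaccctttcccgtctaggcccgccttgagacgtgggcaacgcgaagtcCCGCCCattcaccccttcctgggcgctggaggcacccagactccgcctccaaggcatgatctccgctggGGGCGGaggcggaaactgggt
Of the motifs searched, the GC box GGGCGG, which reads CCGCCC on the other strand, was found in 8 of the 11 windows. Of 32851 RefSeq windows of that length, 35.7% held it. It appears in Fbln5 and Efemp2 above, but all 6 genes held it in some window. For Fbln1 that was window 2, not printed here, with 2 matches. Fbln2, the other fibulin that was higher at 240 h, is not printed and also had 2 matches. The E-box CACGTG was found only in the windows of Fbln1, 81 bases before the start, against 7.15% of all windows. The CCAAT box was found in 2 of 11 windows, that of Fbln5 above among them, against 37.4% of all. The TATA box TATAAA was found in 0 of 11 against 13.6% of all. The AP-1 site TGACTCA was found in 0 of 11 against 5.2% of all. Windows of the same gene can overlap, as in Fbln1, Mfap2 and Efemp2, so a single site can count in several windows. These matches are letters in a window and were not tested for binding.

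Fbln1 (Entrez 14114, chromosome 15, 85205949 to 85286294) encodes a fibulin found in elastic fibres and basement membranes. It measured 84.1, 79.9 and 83.3 CPM with WM-2474 and 58.5, 57.3 and 60.6 CPM with WM-8014 at 96 h. By 240 h it measured 71.6, 59.5 and 67.6 CPM against 26.6, 26.2 and 27.2 CPM. The WM-8014 libraries were lower in every culture, without overlap, and varied little among themselves. Fbln1 fell 1.40-fold at 96 h (log2 -0.49, SE 0.0544, adjusted p 3.08e-06) and 2.48-fold at 240 h (log2 -1.31, SE 0.0593, adjusted p 1.97e-12), where it ranked 3 of all tested genes by p.

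Fbln2 (Entrez 14115, chromosome 6, 91212460 to 91272540) encodes a fibulin that binds fibrillin and fibronectin. It measured 3212, 3418 and 3244 CPM with WM-2474 and 4058, 4092 and 3763 CPM with WM-8014 at 96 h, and rose (log2 0.27, SE 0.038, adjusted p 3.81e-05). Its 240 h levels were 4239, 4395 and 4429 CPM against 5605, 5648 and 5623 CPM, a rise of 1.29-fold (log2 0.37, SE 0.0379, adjusted p 8.39e-08). The groups did not overlap at either time. The ratio of Fbln2 to Fbln1 per length was 28.7 to 32.1 with WM-2474 and 46.6 to 53.6 with WM-8014 at 96 h. It was 44.4 to 55.4 and 155 to 162 at 240 h.

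Efemp2 (Entrez 58859, chromosome 19, 5473946 to 5482520) encodes fibulin 4, which binds lysyl oxidase and tropoelastin and is needed for elastic fibres to form. It measured 318, 347 and 324 CPM with WM-2474 and 368, 382 and 360.4 CPM with WM-8014 at 96 h (log2 0.17, SE 0.0386, adjusted p 0.00347). After 240 h the levels were 358, 355 and 338 CPM against 432, 445 and 418 CPM and rose 1.23-fold (log2 0.30, SE 0.0383, adjusted p 1.61e-06). The groups did not overlap at either time, although the rises were small. The 96 h call was lost without culture 5 in all groups (adjusted p 0.0699, range over alternatives 0.00058 to 0.0699). Fbln5 (Entrez 23876, chromosome 12, 101746565 to 101819119) encodes fibulin 5, which tethers tropoelastin to cells and microfibrils. Its 96 h levels overlapped, at 978, 978 and 1001 CPM against 1009, 966 and 998 CPM, with a log2 difference of 0.01 and an interval of -0.11 to 0.12. By 240 h the levels were 1449, 1301 and 1439 CPM against 1212, 1095 and 1318 CPM and fell 1.16-fold (log2 -0.21, SE 0.055, adjusted p 0.00598). Each WM-8014 culture was lower than the WM-2474 culture of its number, but the groups overlapped, and the call was lost without culture 5 in all groups (adjusted p 0.0943, range 8.51e-05 to 0.0943).

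**Figure D3:**
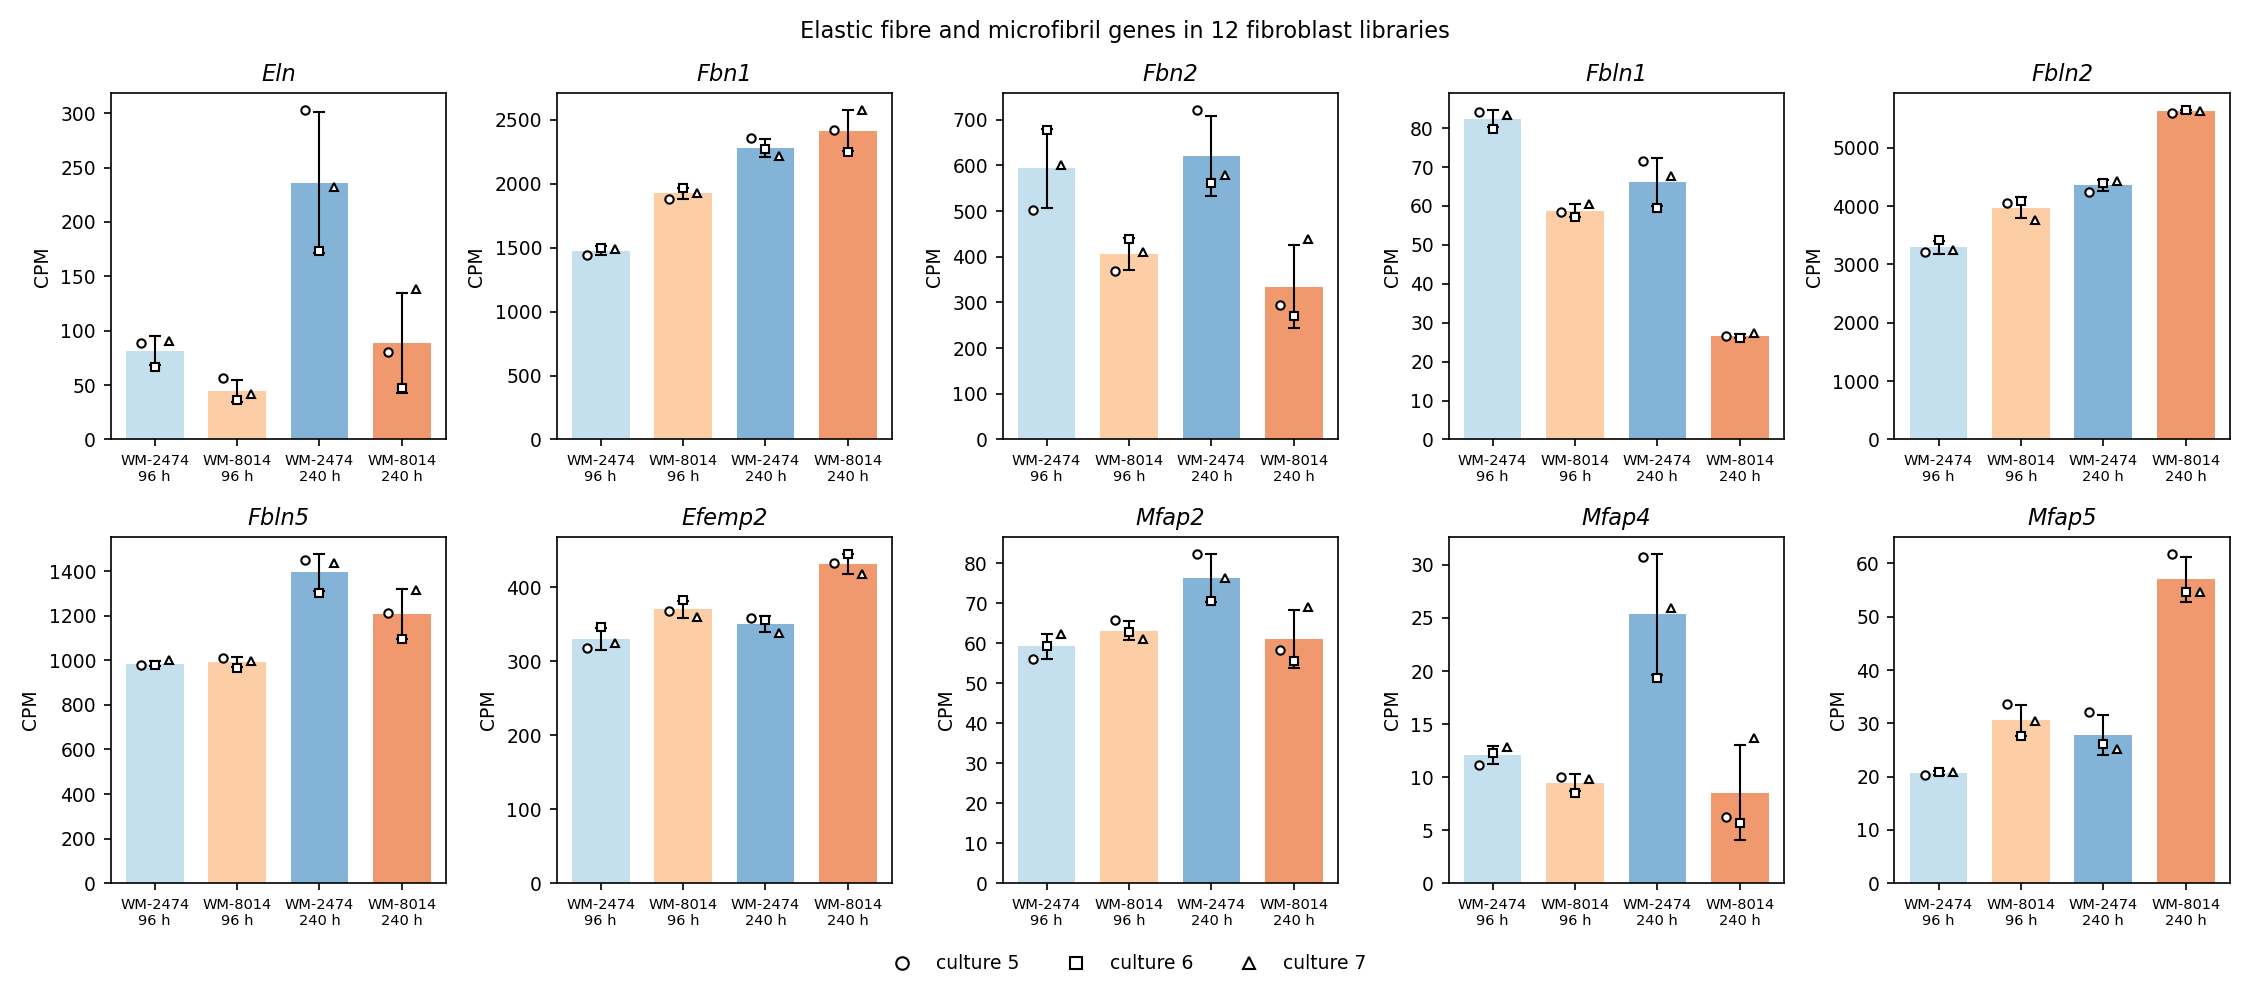
CPM of each of the 10 genes in the 12 libraries, by compound and time; bars are means of 3 cultures, whiskers are SD, and marker shapes are cultures 5, 6 and 7. The WM-8014 libraries of Fbln1 lay close together at each time, while those of Eln and Mfap4 were spread out at 240 h.

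The 3 microfibril-associated proteins, small proteins that decorate microfibrils, did not move as one. Mfap5 (Entrez 50530, chromosome 6, 122513584 to 122529290) encodes MAGP-2, which binds fibrillin. It measured 20.2, 20.8 and 20.9 CPM with WM-2474 and 33.6, 27.7 and 30.4 CPM with WM-8014 at 96 h, and rose (log2 0.56, SE 0.0908, adjusted p 0.000299). At the later time it measured 32.1, 26.2 and 25.2 CPM against 61.8, 54.6 and 54.7 CPM, a rise of 2.04-fold (log2 1.03, SE 0.0805, adjusted p 1.57e-08). The groups did not overlap at either time.

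Mfap2 (Entrez 17150, chromosome 4, 141010424 to 141015976) encodes MAGP-1, the relative of MAGP-2 that binds both fibrillin and tropoelastin. It measured 56.2, 59.2 and 62.4 CPM with WM-2474 and 65.7, 62.7 and 61.0 CPM with WM-8014 at 96 h, with overlap and a log2 difference of 0.08 (interval -0.09 to 0.25, adjusted p 0.514). At 240 h it measured 82.4, 70.5 and 76.2 CPM against 58.4, 55.5 and 69.1 CPM and fell 1.25-fold (log2 -0.32, SE 0.0762, adjusted p 0.00328). The ratio of Mfap5 to Mfap2 per length was 0.27 to 0.29 with WM-2474 and 0.356 to 0.413 with WM-8014 at 96 h. It was 0.266 to 0.314 and 0.637 to 0.853 at 240 h.

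Mfap4 (Entrez 76293, chromosome 11, 61485431 to 61488708) encodes a secreted fibrinogen-like protein that binds elastin and fibrillin. It was the rarest of the 10, at 11.1, 12.2 and 12.8 CPM with WM-2474 and 10.1, 8.53 and 9.81 CPM with WM-8014 at 96 h. By 240 h it measured 30.8, 19.4 and 25.9 CPM against 6.25, 5.71 and 13.7 CPM. The groups did not overlap at either time. Culture 7 was the high library of WM-8014 at 240 h, as it was for Eln and Fbn2. By smaller margins it was also the highest for Fbn1, Fbln1, Fbln5 and Mfap2, and it was not for Fbln2, Efemp2 and Mfap5. Mfap4 fell 2.98-fold at 240 h (log2 -1.58, SE 0.304, adjusted p 0.00297), a call that did not pass with culture 5 left out of all groups (adjusted p 0.079, range 2.12e-06 to 0.079). Its 96 h log2 difference of -0.38 had an interval of -1.14 to 0.39 (adjusted p 0.477) and passed only with the fit limited to the compared groups (0.0113, range 0.0113 to 0.883).

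Whether the compound effect differed between the times was tested by the interaction of compound and time. It passed for 4 of the 10 genes, where 10.7% of all genes passed, 5.15% with a higher effect at 240 h and 5.53% with a lower one. Mfap5 had a higher effect at 240 h (log2 difference of effects 0.47, SE 0.121, adjusted p 0.018). Fbln1 (-0.82, SE 0.0808, adjusted p 1.44e-06), Fbn1 (-0.30, SE 0.059, adjusted p 0.00176) and Mfap2 (-0.41, SE 0.11, adjusted p 0.0297) had a lower one. For Fbln1 and Mfap5 the effect had the same sign and was larger at 240 h, while for Fbn1 the 96 h rise was not seen at 240 h. For Eln the difference of effects was -0.55 with an interval of -1.86 to 0.77 (adjusted p 0.646), and for Fbn2 it was -0.34 (adjusted p 0.542), so the 2 times were not shown to differ for these genes. Mfap4 had -1.20 (interval -2.25 to -0.15, adjusted p 0.152) and passed without culture 7 in all groups (0.0439) and when only its 240 h culture with WM-8014 was left out (0.000907, range over alternatives 0.000907 to 0.564). The Mfap2 call was lost in 11 of 21 alternatives (adjusted p 0.000267 to 0.277) and the Mfap5 call in 5 of 21 (0.000354 to 0.258), as given in the closing section with the libraries concerned.

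The second question was how the genes changed between 96 h and 240 h of culture under each compound. With WM-2474, 7 of the 10 rose (Eln, Fbn1, Fbln2, Fbln5, Mfap2, Mfap4, Mfap5) and Fbln1 fell, where 38.9% of all genes passed, 19.8% higher and 19.1% lower. The median log2 change of the 10 was 0.41, and that of all genes was -0.01. Eln rose 2.86-fold (log2 1.52, SE 0.381, adjusted p 0.0131) and Mfap4 rose 2.05-fold (log2 1.04, adjusted p 0.0183). Fbn1 rose by 0.63 on the log2 scale (adjusted p 1.3e-10), Fbln5 by 0.50 (2.57e-06), Mfap5 by 0.42 (0.00103), Fbln2 by 0.40 (2.59e-08) and Mfap2 by 0.35 (0.00197). Fbln1 fell by 0.32 (4.67e-05). Efemp2 at 0.09 (adjusted p 0.0747) and Fbn2 at 0.06 (interval -0.39 to 0.52) did not pass. The Eln rise was lost without culture 5 (0.154) or culture 7 (0.0719) in all groups, and with cultures 6 and 7 of WM-2474 at 96 h left out (0.218, range 0.000408 to 0.218). The Mfap4 rise was lost without culture 5 in all groups (0.192), culture 7 of WM-2474 at 96 h (0.0623) or at 240 h (0.0504), culture 5 of WM-2474 at 240 h (0.054), and cultures 6 and 7 of WM-2474 at 96 h (0.211, range 7.74e-05 to 0.211). The Mfap5 rise was lost without the last pair as well (0.0665).

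With WM-8014, 5 of the 10 rose over the same interval (Fbn1, Fbln2, Fbln5, Efemp2, Mfap5) and Fbln1 fell, where 49.7% of all genes passed, 24.8% higher and 25% lower. The median log2 change was 0.25, against -0.02 for all genes. Fbln1 fell 2.21-fold (log2 -1.14, adjusted p 1.72e-12) and Mfap5 rose 1.85-fold (log2 0.89, adjusted p 7.56e-08). Fbln2 rose by 0.50 on the log2 scale (3.81e-10), Fbn1 by 0.33 (1.05e-06), Fbln5 by 0.29 (0.000456) and Efemp2 by 0.22 (5.07e-05). Fbn2 at -0.28 (interval -0.74 to 0.19, adjusted p 0.293), Mfap2 at -0.05 (interval -0.22 to 0.12, 0.614) and Mfap4 at -0.16 (interval -0.98 to 0.66, 0.74) did not pass. Without culture 7 of WM-8014 at 240 h all 3 passed as lower, Fbn2 at -0.53 (0.0313), Mfap2 at -0.16 (0.0495) and Mfap4 at -0.69 (0.0208). Their adjusted p ranged up to 0.841, 0.996 and 0.993 over the other alternatives. Eln, at 0.97 with an interval of -0.01 to 1.96, missed the threshold (adjusted p 0.0938) and passed with DESeq2 (0.0246) and without culture 6 of WM-8014 at 240 h (0.0186), over a range of 0.0186 to 0.6 across alternatives. The test of whether a time change differed between the compounds is the interaction above. All 8 smooth muscle markers rose over time with each compound, and of the 8 fibroblast markers 6 rose and 1 fell with each. Of all genes, 19.8% rose and 19.1% fell with WM-2474, and 24.8% and 25% did with WM-8014. Of 5 tested epithelial and mesothelial markers 4 fell with WM-2474 and 2 with WM-8014, and all 4 tested endothelial markers fell with each. Whether smooth muscle, epithelial, mesothelial or endothelial cells were present was not tested, nor was their part in the changes.

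**Figure D4:**
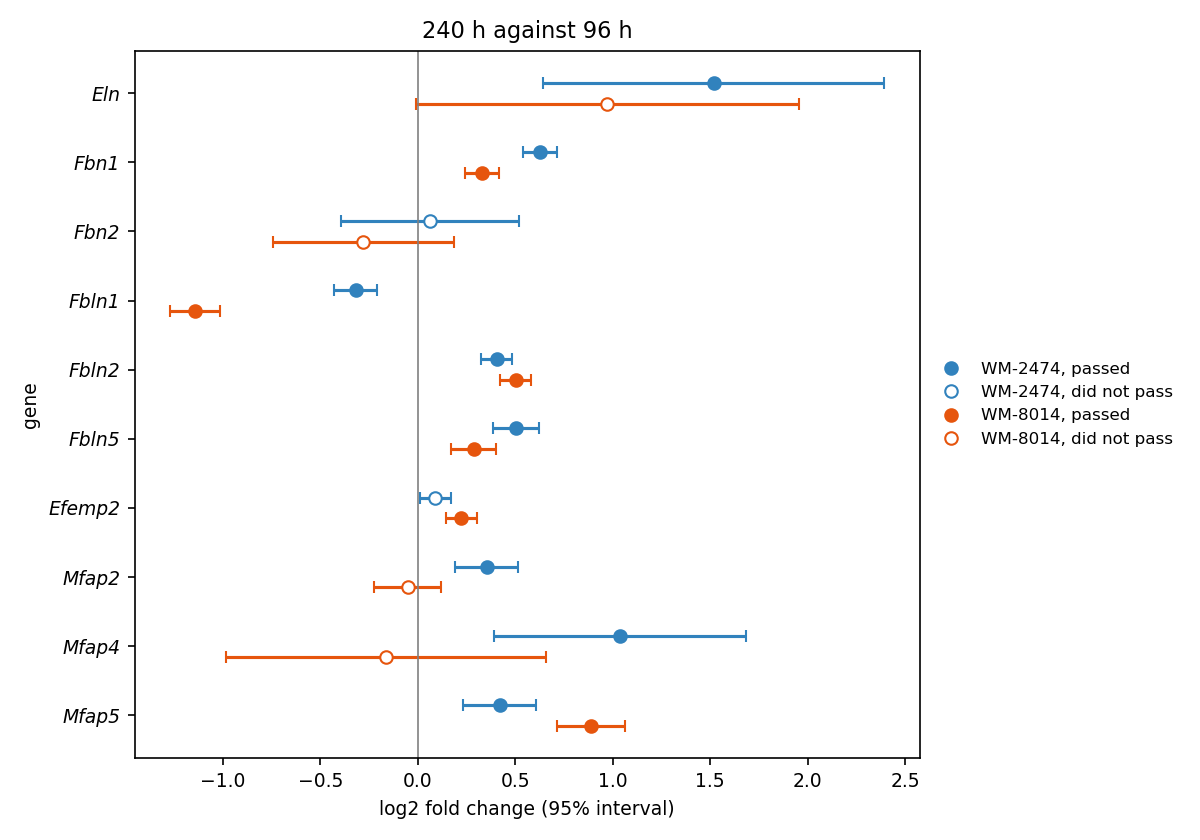
Log2 fold change from 96 h to 240 h for each gene under WM-2474 and under WM-8014, with 95% intervals; filled points passed an adjusted p of 0.05. Fbln1 fell under both compounds, and Eln and Mfap4 passed with WM-2474 and not with WM-8014, a difference whose own test did not pass.

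The profiles of the 10 genes over the 12 libraries, each centred on its own mean log2 CPM, were compared by their root mean square distance. Fbn1 and Fbln2 were the closest pair at 0.126, followed by Fbln5 and Mfap2 at 0.137 and Fbln2 and Efemp2 at 0.16. Fbln1 and Mfap5 were the farthest apart at 1.15, and Eln and Mfap5 lay at 1.13. The member closest to Eln was Mfap4, at 0.487. These distances describe 12 libraries that share 4 groups and carry no test.

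The wider elastic fibre pathway was taken as 60 other genes in 8 lists, of which 57 were tested. These lists were also chosen with earlier results of these data known. At 96 h 19 of the 57 were higher with WM-8014 and 5 lower, with a median log2 fold change of 0.05, where 10.9% and 11.8% of all genes were. At 240 h 23 were higher and 10 lower, with a median of 0.12, where 21.2% and 21.4% of all genes were. The same shares of all genes stand beside the counts of each list at these times below. From 96 h to 240 h 35 rose and 3 fell with WM-2474, where 19.8% of all genes rose and 19.1% fell. With WM-8014 40 rose and 3 fell, where 24.8% and 25% of all genes did.

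Of the 7 latent TGF-beta binding proteins and TGF-beta ligands, 3 were higher and 1 lower at 96 h, and 3 higher and 0 lower at 240 h. Ltbp2, a binding protein that attaches to fibrillin microfibrils and does not hold TGF-beta, rose from 308 ± 20 to 463 ± 46 CPM (SD, n = 3) at 96 h, by 0.59 on the log2 scale (SE 0.0775, edgeR adjusted p 0.000371). At 240 h it rose from 438 ± 27 to 1129 ± 60 CPM, by 1.37 (SE 0.0769, adjusted p 1.09e-07). Ltbp3 rose at both times, by 0.21 (0.00104) and 0.33 (1.63e-06). Ltbp4, whose protein assists elastin assembly, was 0.26 higher at 96 h (0.00873) and had -0.12 at 240 h (0.117). Tgfb2 was 0.62 higher at 240 h (0.00594). Its 96 h value of -0.17 (adjusted p 0.54) passed with the cultures paired (0.0449, range over alternatives 0.0449 to 0.86). Tgfb3 was lower at 96 h (-0.32, adjusted p 0.0161) and had -0.13 at 240 h. Ltbp1 (0.01, adjusted p 0.954) and Tgfb1 (0.01, 0.943) did not pass at 96 h. At 240 h Ltbp1 had 0.16 (0.0642), which passed in 5 of 22 alternatives, DESeq2 (0.0315) and the fit without culture 6 of WM-2474 at 240 h (0.23, adjusted p 0.0019) among them, over a range of 0.0019 to 0.346. Tgfb1 had -0.15 at 240 h (0.0503), which passed in 7 of 22, no filter on low counts (0.0354) and the fit without culture 5 of WM-2474 at 240 h (-0.22, adjusted p 0.00331) among them, over a range of 0.00331 to 0.271. The 240 h values of Ltbp4 and Tgfb3 passed in 3 of 22 alternatives each, over ranges of 0.00825 to 0.686 and 0.00607 to 0.698. Leaving out libraries ended the 96 h calls of Tgfb3 (to 0.353), Ltbp4 (log2 0.17, adjusted p 0.181 without culture 5 in all groups) and Ltbp3 (0.0861 with cultures 6 and 7 of WM-2474 at 96 h left out), and the 240 h call of Tgfb2 (0.0743 without culture 7 in all groups). For Tgfb3 these were culture 7 in all groups, culture 7 of WM-2474 at 96 h with or without culture 6, and culture 5 or 7 of WM-8014 at 96 h, and its log2 value was -0.19 without both cultures 6 and 7 of WM-2474 at 96 h. For Ltbp4 they included culture 5 of WM-8014 at 96 h (0.0522) and cultures 6 and 7 of WM-2474 at 96 h (0.0684).

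**Figure D5:**
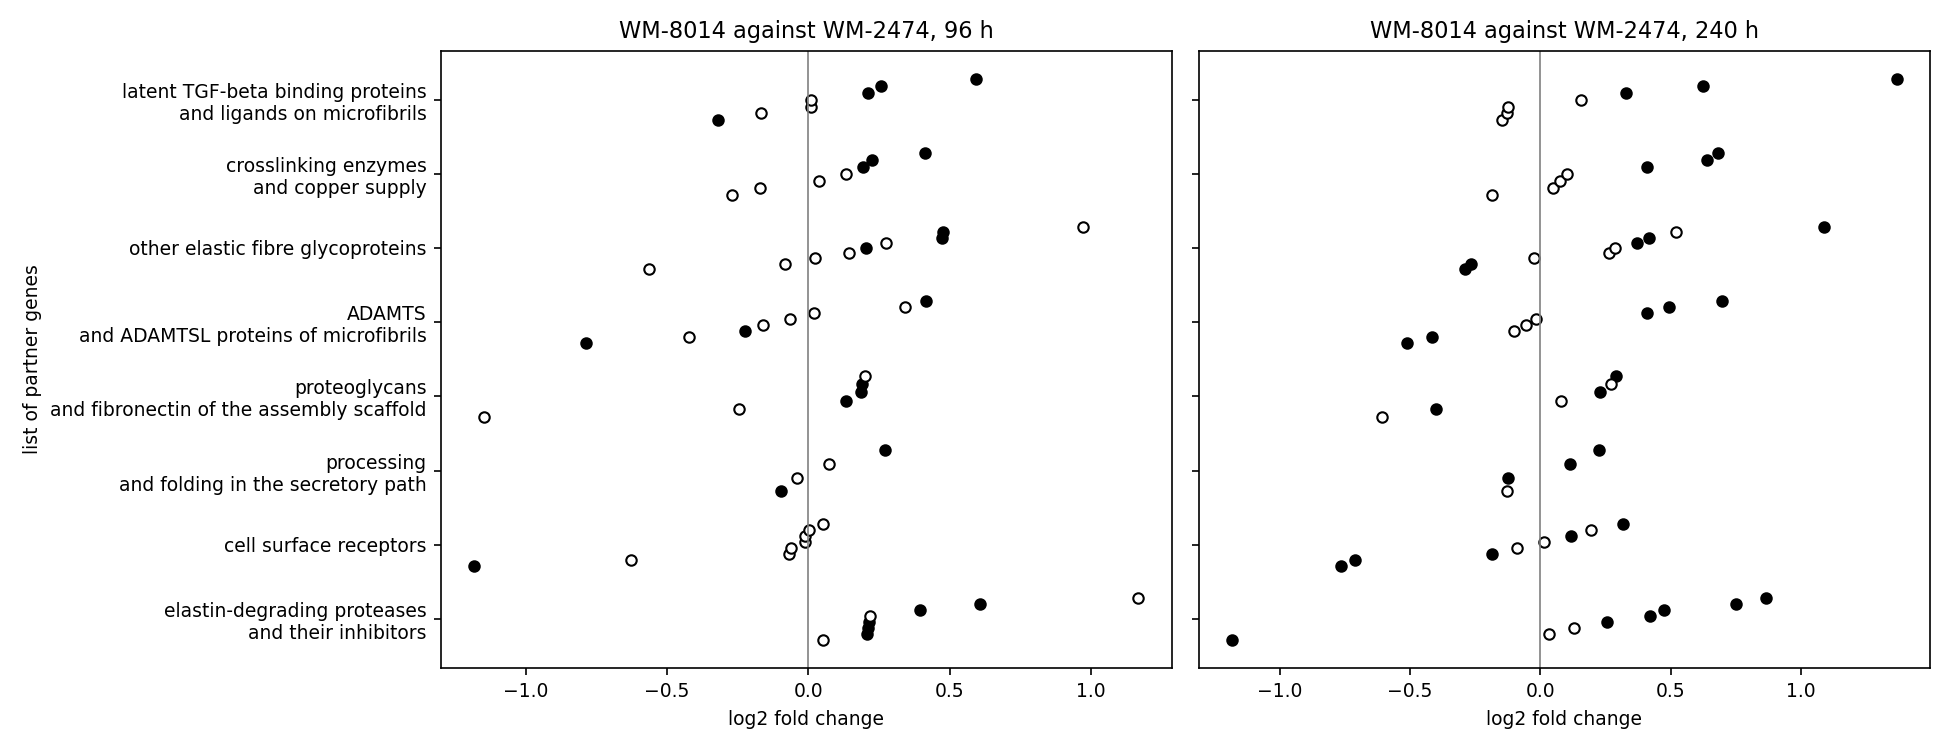
Log2 fold change of WM-8014 against WM-2474 for the 57 tested pathway genes, by list, at 96 h and 240 h; filled points passed an adjusted p of 0.05. Ltbp2 and Efemp1 lay above 1 at 240 h.

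Of the 7 crosslinking enzymes and copper transporters, 3 were higher and 0 lower at each time. Lox, the lysyl oxidase that crosslinks elastin and collagen, rose from 3095 ± 180 to 3534 ± 91 CPM at 96 h (log2 0.19, adjusted p 0.00156) and from 3632 ± 88 to 4821 ± 97 CPM at 240 h (0.41, 4.17e-08). Loxl1, a relative that acts in elastic fibre upkeep, rose at 96 h (0.23, 0.000208) and had 0.05 at 240 h (0.322). Loxl2 had 0.04 at 96 h (0.557) and 0.10 at 240 h (0.0516), where its groups did not overlap. The 240 h value passed in 7 of 22 alternatives, thinning (0.0369) and no filter (0.0496) among them, over a range of 0.0237 to 0.469. Lox thus rose at 240 h while its substrate Eln fell. Of 9 other glycoproteins listed with the fibre, not all of them established parts of it, 3 were higher at 96 h, and 3 higher and 2 lower at 240 h. Efemp1 (fibulin 3) rose at 240 h from 271 ± 35 to 576 ± 44 CPM (1.09, adjusted p 6.39e-05). Emilin1, a glycoprotein at the boundary of elastin and microfibrils, fell at 240 h (-0.27, 1.11e-05). Emilin2 was higher at 96 h (0.48, 0.0183) and at 240 h (0.37, 0.0286). Efemp1 was higher at 96 h too (0.47, 0.0175). The 96 h calls of Emilin2 and Efemp1 were lost in 6 and 7 of 22 alternatives and the 240 h call of Emilin2 in 6, each of which left out 1 or more libraries, with adjusted p up to 0.315, 0.283 and 0.179. At 96 h these were culture 7 in all groups, culture 6 or 7 or both of WM-2474 and culture 5 of WM-8014 for both genes, with culture 6 in all groups for Emilin2, and culture 5 in all groups and culture 7 of WM-8014 for Efemp1. For Emilin2 at 240 h they were culture 6 or 7 in all groups or of WM-2474, and culture 5 or 6 of WM-8014. Fbln7 had 0.27 at 96 h (0.48) and 0.52 at 240 h (0.0894). The latter was 0.82 without culture 5 of WM-2474 at 240 h (adjusted p 0.0114) and 0.78 without culture 5 in all groups (0.0359), and passed in both fits, over a range of 0.0114 to 0.536.

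Of 8 tested ADAMTS and ADAMTSL proteins, secreted proteins that bind fibrillin and several of which affect microfibril assembly, 1 was higher and 2 lower at 96 h, and 3 higher and 2 lower at 240 h. Adamts10 fell at 240 h (-0.51, adjusted p 4.51e-07). Adamtsl4 rose at 240 h (0.70, 0.000508). Its 96 h value of 0.34 (0.0593) passed in 8 of 22 alternatives, over a range of 7.37e-05 to 0.298. Pairing of the cultures (7.37e-05) and DESeq2 (0.00387) were among them. Thsd4 (ADAMTSL6) was lower at 96 h (-0.79, 0.00173), which was lost with cultures 6 and 7 of WM-2474 at 96 h left out (0.157), and had -0.05 at 240 h. Adamtsl2 passed at neither time. Of 6 genes for proteoglycans and fibronectin, 3 were higher at 96 h, and 2 higher and 1 lower at 240 h. Fn1, the fibronectin on which fibrillin first assembles, was higher at 96 h (0.19, 0.041) and at 240 h (0.29, 0.00156). Vcan, the proteoglycan versican, fell at 240 h (-0.40, 0.000599). Its 96 h value of 0.20 (0.0619) passed in 9 of 22 alternatives, over a range of 0.000362 to 0.523. Pairing of the cultures (0.000362) and DESeq2 (0.017) were among them. Bgn (biglycan) was higher at 96 h (0.13, 0.00989). At 240 h its value was 0.08 (interval 0.01 to 0.15, adjusted p 0.0734), which passed without culture 6 of WM-8014 at 240 h (0.0413, range over alternatives 0.0413 to 0.339), and the interaction did not pass (-0.05, adjusted p 0.596). The 96 h calls of Fn1 and Bgn were lost in 11 and 4 of 22 alternatives, with adjusted p up to 0.284 and 0.277. For Bgn these were culture 5 or 6 in all groups, and culture 7 or cultures 6 and 7 of WM-2474 at 96 h. For Fn1 they were no filter on low counts and 10 fits that left out culture 5, 6 or 7 in 1 or more groups, and its log2 value fell to 0.13 without culture 6 of WM-8014 at 96 h. Also lost was the 240 h call of Fn1 without culture 5 in all groups (0.0534).

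Of 8 cell surface receptors, 0 were higher and 1 lower at 96 h, and 2 higher and 3 lower at 240 h. Itga8, an integrin subunit of contractile mesenchymal cells, fell at 240 h from 168 ± 22 to 103 ± 19 CPM (-0.71, adjusted p 0.00539), which was lost without culture 5 in all groups (0.103). Its 96 h value of -0.63 (0.0572) passed in 6 of 22 alternatives, over a range of 0.000767 to 0.415. Pairing of the cultures (0.00216) and DESeq2 (0.00303) were among them. Itgb3 was lower at 240 h (-0.18, 0.0165), which was lost in 6 of 22 alternatives (up to 0.208), namely with libraries thinned, without culture 6 or 7 in all groups or of WM-2474 at 240 h, and without culture 7 of WM-8014 at 240 h. Itgav (-0.07, 0.303) and Itga5 (-0.01, 0.951) did not pass at 96 h. Itgav at 240 h, with -0.09 (0.113), passed at -0.16 without culture 5 in all groups (0.0148) or of WM-2474 at 240 h (0.00282), over a range of 0.00282 to 0.653. Itga5 at 240 h, with 0.20 (0.116), passed with DESeq2 (0.0223), without culture 6 in all groups (0.0389) or of WM-2474 at 240 h (0.0205), and without culture 7 of WM-8014 at 240 h (0.0185), over a range of 0.0185 to 0.538. Of 4 processing and folding genes, 1 was higher and 1 lower at 96 h, and 2 higher and 1 lower at 240 h. Fkbp10, a collagen and tropoelastin chaperone, was 0.11 higher at 240 h (0.0108), which was lost without culture 5 in all groups (log2 0.07, adjusted p 0.227) and with only that culture of WM-2474 at 240 h left out (0.0981).

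Of 8 tested elastin-degrading proteases and their inhibitors, 5 were higher and 0 lower at 96 h, and 5 higher and 1 lower at 240 h. The list joins genes of opposite function. The inhibitors Timp2 and Timp3 were among the higher genes at 96 h, and Timp1, Timp2 and Timp3 at 240 h. The lower gene was Mmp9, at 0.793 CPM with WM-8014 against 1.76 CPM with WM-2474, with overlapping groups. Ctsk, a cathepsin that can cleave elastin and collagen, rose from 91.4 ± 4.2 to 139 ± 8.2 CPM at 96 h (0.61, adjusted p 5.67e-06) and from 167 ± 6 to 224 ± 19 CPM at 240 h (0.42, 1.7e-05). Timp3, a matrix-bound inhibitor of metalloproteases, was higher at 96 h (0.21, 0.0183) and rose at 240 h from 2511 ± 44 to 4566 ± 330 CPM (0.86, 2.47e-08). Mmp14, a membrane-bound metalloprotease, rose at 96 h (0.21, 0.00085) and had 0.03 at 240 h. Mmp2 had 0.05 at 96 h (0.663) and 0.13 at 240 h (0.182), the latter passing in 3 of 22 alternatives, over a range of 0.0376 to 0.676. The 96 h call of Timp3 was lost in 6 of 22 alternatives (up to 0.0914), namely with no filter on low counts, without culture 6 or 7 in all groups or of WM-8014 at 96 h, and without culture 5 of WM-2474 at 96 h.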

How the data were processed

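RNA of 12 fibroblast cultures was sequenced from stranded poly(A) libraries, per the labels' protocols. The deposited table holds raw read counts per Entrez gene, made by the authors with featureCounts on mm10, per the submitters' processing notes, with a gene length from which RPKM was computed here. Not given in the sources used here are the aligner, annotation, strand setting and tool version. All count columns were matched to samples by the labels' descriptions. Of 27179 identifiers, 25275 (93%) matched a RefSeq gene table of GRCm38.p6.

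The 14136 genes passing filterByExpr of edgeR 4.0.16 (R 4.3.3) were kept, library sizes were scaled by TMM, and a mean per group was fitted over all 12 libraries (common biological coefficient of variation 4.64%). The quasi-likelihood F test of edgeR (robust, two-sided) was run on each contrast, with Benjamini-Hochberg adjustment over all tested genes at 0.05. CPM use TMM-scaled library sizes, and intervals are 95%. The code was tested on simulated counts. DESeq2 1.42.0, other filters and scalings, thinning, the culture number as a block and leaving out libraries were tried as alternatives.

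The 10 genes, the pathway lists and the named genes were chosen with earlier results of these data known. All 10 genes were named whatever their values, with 30 pathway genes listed by name, and for Eln and Fbn1 the 3 genes with the nearest profiles among those with a mean log2 CPM of at least 3 (prior count 2). Replicate libraries differed by more than sampling noise (chi-square per degree of freedom 2.1 to 7.13), so all were counted. Deviations from the group means correlated between same-numbered cultures at 96 h in every pair (0.14, 0.15, 0.16), above the limit of 0.1 set for pairing, and were not above it in every pair at 240 h (0.064, 0.24, 0.048). The labels do not say whether a culture number marks a common source. Over all pairs of libraries from different groups, the mean correlation was 0.11 for 18 same-numbered pairs and -0.055 for 36 others. The limit was thus met in every pair at 96 h and not at 240 h. The main fit, over all 12 libraries, was left unpaired at both times, so its 96 h tests take no account of that pairing. The paired fit is given as an alternative only.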

Additional observations from a re-analysis of the deposited data

Results flagged for a closer look

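The compound effect differed between 96 h and 240 h for 4 of the 10 genes by the interaction test of edgeR, over 3 cultures a group, where 10.7% of all genes passed. The calls of Mfap2 and Mfap5 were lost in 11 and 5 of 21 alternatives. The log2 effect of WM-8014 at 240 h minus that at 96 h was -0.82 for Fbln1, -0.30 for Fbn1, -0.41 for Mfap2 and 0.47 for Mfap5. For Fbln1 the fall was larger at 240 h, and for Mfap5 the rise was. For Fbn1 the rise of 0.38 at 96 h stood beside 0.08 at 240 h. For Mfap2 a value of 0.08 at 96 h stood beside a fall to -0.32 at 240 h.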

How the results depend on the processing

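Each comparison was recomputed under up to 22 alternatives. Of the 10 genes' values, 1030 kept their direction and side of the threshold, 33 lost a call, 18 gained one and 9 changed sign. The causes were not tested, except that leaving out libraries leaves fewer samples. Intervals of Eln, Fbn2 and Mfap4 were wide with 3 cultures a group, and large differences of these genes could also miss the threshold. Eln at 96 h had -0.88 (interval -1.86 to 0.10) and the Mfap4 interaction -1.20 (interval -2.25 to -0.15), and neither passed. A value that did not pass therefore does not show that the gene was unchanged.

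With the culture number as a replicate block, 5 of the 10 genes passed at 96 h, 9 at 240 h, 5 in the interaction, 9 over time with WM-2474 and 7 over time with WM-8014, and the counts over all genes were 3590, 6330, 1840, 5811 and 7236. In that fit Fbln5 passed in the interaction (adjusted p 0.00871), Efemp2 over time with WM-2474 (0.0365) and Eln over time with WM-8014 (0.0423), and no other call of the 10 genes changed. Of the pathway genes at 240 h, Ltbp1 (0.00199), Tgfb1 (0.00474), Tgfb3 (0.00607) and Loxl2 (0.0237) passed in it. DESeq2 called 2447, 5139, 1268, 4558 and 6120 genes in the same order.

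With 1 culture or library left out at a time, 1750 to 3392 genes and 4 to 6 of the 10 passed at 96 h. At 240 h 4354 to 6089 genes and 5 to 10 of the 10 passed, and in the interaction 724 to 1603 genes and 2 to 6 of the 10 did. With cultures 6 and 7 of WM-2474 at 96 h left out together, which left that group 1 library assumed to vary like the others, 869 genes passed at 96 h. In the interaction 586 genes and 2 of the 10 then passed, and over time with WM-2474 2710 genes and 5 of the 10 did.

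In the interaction, Mfap5 lost its call without culture 6 (adjusted p 0.166) or culture 7 (0.209) in all groups, without the culture 7 library of WM-2474 (0.07) or WM-8014 (0.0505) at 96 h, and without cultures 6 and 7 of WM-2474 at 96 h (0.258). Mfap2 lost its call without culture 5 (0.277) or culture 6 (0.0576) in all groups, without a filter on low counts (0.0531), without cultures 6 and 7 of WM-2474 at 96 h (0.0875), and in 7 fits that each left out 1 library (0.0525 to 0.0803). Fbln5 passed there without the culture 6 library of WM-2474 (0.0279) or the culture 7 library of WM-8014 (0.00504) at 240 h.

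Values near 0 changed sign with 1 culture or library left out at a time. Their log2 ranges over those fits were -0.0121 to 0.0252 for Fbln5 at 96 h, -0.152 to 0.234 for Fbn2 over time with WM-2474, and -0.181 to 0.0284 for Mfap2 and -0.686 to 0.174 for Mfap4 over time with WM-8014. At 96 h they were -0.0202 to 0.0306 for Ltbp1, -0.0490 to 0.0531 for Tgfb1, -0.115 to 0.0204 for Adamts10, -0.0763 to 0.0499 for Itgb3, -0.0480 to 0.0281 for Itga5 and -0.0108 to 0.136 for Mmp2. At 240 h they were -0.466 to 0.173 for Adamtsl2, -0.190 to 0.0765 for Thsd4 and -0.0173 to 0.0626 for Mmp14. Itgb3 at 96 h was also -0.00294 with DESeq2 size factors, -0.00212 with DESeq2 and -0.00555 without a filter. With libraries thinned to the smallest total, Tgfb1 at 96 h was -0.0167 and Thsd4 at 240 h was 0.0189. Without cultures 6 and 7 of WM-2474 at 96 h, Tgfb2 at 96 h was 0.121, and the values of Fbn2 (0.305), Itga5 (-0.0489) and Mmp2 (0.201) lay outside the ranges above.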

Other observations

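The genes with the profile most like that of Eln over the 12 libraries, among 9816 genes compared, were Aspn at a root mean square log2 distance of 0.354, Cdh3 at 0.422 and Podn at 0.433. Aspn encodes asporin, a small leucine-rich proteoglycan of the matrix, and Cdh3 encodes P-cadherin. In the order WM-2474 at 96 h, WM-8014 at 96 h, WM-2474 at 240 h and WM-8014 at 240 h, the group means of Aspn were 108, 85.0, 277 and 136 CPM. Those of Cdh3 were 57.0, 38.1, 130.2 and 63.7 CPM, and those of Podn 15.1, 10.9, 35.9 and 22.1 CPM. Each was lowest with WM-8014 at 96 h and highest with WM-2474 at 240 h, as Eln was. The nearest genes to Fbn1 lay much closer, with Cyb5r1 at 0.0785, Crip1 at 0.0806 and Atf5 at 0.0879, and Fbn1 itself varied less. These genes were chosen for their likeness, so the values carry no test.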
